A study of Homo sapiens with 2 samples.

Results

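SRC and its relatives are tyrosine kinases without a transmembrane part, and the loci of SRC, YES1, FYN, LYN, LCK, FGR, BLK, FRK and CSK were examined for open chromatin in B2B cells. The 9 genes were taken by name, out of 20033 protein-coding genes in the GENCODE annotation, and not every relative of SRC is among them. Each locus was taken with 50 kb on either side of the gene, including the gene body and every annotated transcription start site (TSS). B2B is BEAS-2B, an immortalized and non-cancerous line of human bronchial epithelial cells, and both samples were of wild-type genotype and carry no treatment label. ATAC-seq was performed on 2 replicates, with Tn5 transposase inserting adapters into accessible DNA, and the authors called peaks on each replicate separately. Both samples were of 1 condition, so the loci are described without a test between conditions. Nothing in the labels says whether the replicates came from separate cultures.

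SRC family kinases are held inactive when a tyrosine near their C-terminal end is phosphorylated, and CSK is the kinase that places this phosphate. Removal of the phosphate by phosphatases, or binding of partner proteins, activates the kinases, which then act on focal adhesion, cytoskeleton and junction proteins. SRC, YES1 and FYN are known for wide expression across tissues, LCK, FGR, BLK and LYN for their work in blood cells, and FRK is a more distant relative found in epithelial cells.

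The sequences just before the start sites are shown because the loci differed in promoter peaks and in their content of CpG dinucleotides, the sites of most DNA methylation. Each is the 100 bases before the most upstream TSS of the canonical start site group in hg38, read 5′ to 3′ on the strand of the gene, with CpG dinucleotides in capitals. The promoter of FYN had a strong peak in both replicates and that of YES1 a peak of middle height. SRC and FRK had a peak in replicate 2 alone, and CSK had none.
FYN (chr6:111873453-111873552, minus strand): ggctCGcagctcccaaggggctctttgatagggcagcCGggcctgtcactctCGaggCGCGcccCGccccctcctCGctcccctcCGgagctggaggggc
YES1 (chr18:812547-812646, minus strand): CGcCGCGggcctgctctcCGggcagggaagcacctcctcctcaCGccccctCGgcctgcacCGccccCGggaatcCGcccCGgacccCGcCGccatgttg
SRC (chr20:37346009-37346108, plus strand): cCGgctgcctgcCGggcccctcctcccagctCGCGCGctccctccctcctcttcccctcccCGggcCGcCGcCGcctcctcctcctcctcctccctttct
FRK (chr6:116060892-116060991, minus strand): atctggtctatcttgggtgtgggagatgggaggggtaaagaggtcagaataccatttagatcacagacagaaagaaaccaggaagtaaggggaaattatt
CSK (chr15:74781980-74782079, plus strand): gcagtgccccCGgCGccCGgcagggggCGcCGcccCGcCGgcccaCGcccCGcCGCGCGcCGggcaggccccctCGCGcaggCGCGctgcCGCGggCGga
These 100 bases held 20 CpGs at CSK, 12 at YES1, 9 at SRC, 8 at FYN and 0 at FRK. Of the sequences shown, the richest in CpG belonged to a gene without a promoter peak. The one without any CpG belonged to a gene with a peak in 1 replicate. LYN, LCK, FGR and BLK are not shown. The same stretch held 7 CpGs at FGR and 4 at LCK, both without a promoter peak.

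The lists used held 28735 peaks for replicate 1 and 36162 for replicate 2, and the fold enrichment of a peak is its fragment number at the summit over the local background, each with 1 added. Read totals are not in the lists, so depth was read from the fragments at the summits. These could be solved as whole numbers at 99.7% of replicate 1 peaks and 99.8% of replicate 2 peaks. The weakest listed summit had 16 fragments in replicate 1, over a background of 4.77, and 13 in replicate 2, over a background of 3.41. A locus without a peak may therefore still be open at a level that these lists cannot show. The label of the cells was checked with marker genes. A promoter peak was found in both replicates for 1 of 12 epithelial markers, KRT18, for 8 of 12 mesenchymal markers, and for 1 of 12 leukocyte markers, CD14. Over all protein-coding genes the share was 52.2%. The mesenchymal share of 66.7% was above this background, and the epithelial and leukocyte shares of 8.33% each were under it. At any annotated TSS, 10 mesenchymal, 2 epithelial and 1 leukocyte markers had a peak in both replicates, against 56.1% of all protein-coding genes. Lists of 12 genes are too short for these counts to be more than a description. The defining epithelial genes CDH1, EPCAM and KRT5 had no promoter peak in either replicate. The part of this marker pattern in the results at the kinase loci was not tested.

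Of the 9 genes, YES1, FYN and LYN had a peak within 1 kb of the canonical TSS in both replicates. SRC and FRK had one in replicate 2 only, and LCK, FGR, BLK and CSK had none. Over all protein-coding genes, 52.2% had a promoter peak in both replicates, 5.73% in replicate 2 only, 0.953% in replicate 1 only and 41.1% in neither. The 3 genes with a peak in both replicates were thus fewer than that background share of 9 genes would be, and 2 genes with a peak in replicate 2 only were more, in a list too short for either count to be more than a description. Replicate 2 had the longer list and the lower background, and the part of this in the 2 calls was not tested.

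**Figure D1:**
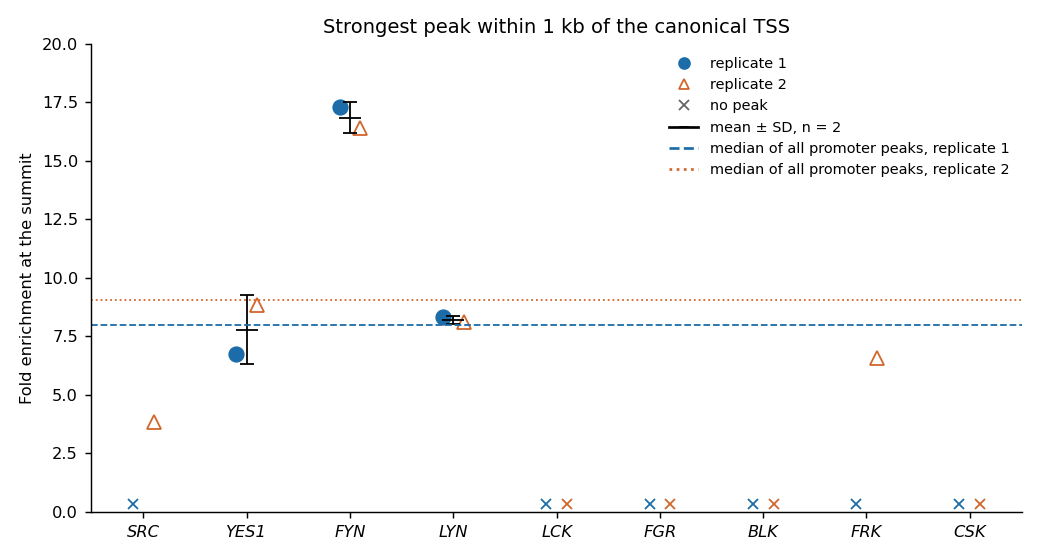
Fold enrichment at the summit (y axis) of the strongest peak within 1 kb of the canonical TSS of each gene (x axis). Circles are replicate 1, triangles replicate 2, crosses mark no peak, and bars give the mean ± SD (n = 2). Lines give the median of all promoter peaks, 7.97 in replicate 1 and 9.06 in replicate 2. FYN stood above both medians in both replicates.

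FYN, a widely expressed kinase that also acts in T cell receptor signalling, had the strongest promoter peak of the 9 genes. Replicate 1 gave a fold enrichment of 17.3 and replicate 2 of 16.4, with a mean of 16.9 ± 0.662 (SD, n = 2). The summit held 99 fragments in replicate 1 (95% Poisson interval 80.5 to 121) and 91 in replicate 2 (73.3 to 112). Both replicates placed the summit at the same base, 74 bp upstream of the TSS at chr6:111873452 (hg38, ENSG00000010810.18, minus strand), within the 100 bases shown for FYN. Of all protein-coding promoters with a peak, 94.9% had a lower fold enrichment in replicate 1 and 91.9% in replicate 2. The intervals cover counting error only.

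YES1, a widely expressed relative of SRC, lies on the minus strand of chromosome 18 with its TSS at 812242 (ENSG00000176105.14). Its promoter peak was enriched 6.76-fold in replicate 1 and 8.84-fold in replicate 2, with a mean of 7.80 ± 1.47 (SD, n = 2). The summits held 38 fragments in both replicates, so the folds differed through the background. The summit lay 39 bp downstream of the TSS in replicate 1 and 284 bp upstream in replicate 2, and the peaks overlapped. A lower fold enrichment was found at 36.6% of promoter peaks in replicate 1 and at 47.3% in replicate 2, which puts YES1 below the middle of open promoters.

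LYN, known for its part in B cell and myeloid signalling, was the only gene of the blood cell group here with a promoter peak. Replicate 1 had 2 peaks around its TSS, with 45 and 47 fragments, and replicate 2 had 1 broader peak of 1066 bp with 37 fragments. The strongest was enriched 8.32-fold in replicate 1 and 8.10-fold in replicate 2, with a mean of 8.21 ± 0.156 (SD, n = 2). LYN and YES1 differed by less than the SD of YES1, whereas FYN stood above both in each replicate.

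SRC, the first of the family to be described and the gene the others are set beside here, had 0 peaks within 1 kb of its canonical TSS in replicate 1. In replicate 2 it had 1 peak, at chr20:37345908-37346138, enriched 3.85-fold at a −log10 q of 4.38. The summit, 131 bp upstream of the TSS, held 16 fragments (9.15 to 26.0), which is the number of the weakest summit listed for replicate 1. Of the promoter peaks in replicate 2, 0.603% had a lower fold enrichment. The SRC promoter peak was therefore among the weakest that were called, and it was lost under a stricter limit, a −log10 q of 5 or more. The other 6 start site groups of SRC, at 1.46 kb upstream of the canonical TSS and from 37.5 to 56.2 kb downstream of it, had 0 peaks in either replicate. In replicate 1 the peak nearest to the SRC TSS was 50.9 kb away, whereas the median over protein-coding genes was 175 bp.

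FRK, which has been studied as a growth-restraining kinase of epithelial cells, had a promoter peak of 204 bp in replicate 2 with its summit 87 bp downstream of the TSS. It was enriched 6.57-fold, with 28 fragments (18.6 to 40.5) and a −log10 q of 14.0. It was thus further above the limit of detection than the peak of SRC, and 24.9% of the promoter peaks of replicate 2 had a lower fold. Replicate 1 had no peak within 26.6 kb of the FRK TSS.

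LCK, the kinase that starts T cell receptor signalling, FGR, a kinase of myeloid cells, and BLK, a kinase of B cells, had no peak at any annotated TSS in either replicate. The nearest peak to the LCK TSS was 10.7 kb away in replicate 1 and 10.6 kb in replicate 2. For FGR the distances were 24.9 and 23.8 kb, and for BLK 5.12 and 13.2 kb. The 3 promoters without peaks at these immune kinases stood beside 12 immune receptor partner genes, such as ZAP70, SYK and BTK, of which 0 had a promoter peak at the canonical TSS in either replicate. This count depends on the start site used, since BTK, CD247 and CD8A had a peak in both replicates at another annotated TSS.

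CSK, the inhibitor of the family, had no peak within 1 kb of its canonical TSS in either replicate. The nearest peak was 61.0 kb downstream in replicate 1 and 18.2 kb downstream in replicate 2. The latter lay near the 3′ end of the gene, at a group of internal start sites of shorter transcripts, with a fold enrichment of 5.44. The 9 genes had 86 annotated start sites, which fell into 43 groups when sites within 1 kb were joined, and this was the only 1 of the 34 groups without the canonical TSS to have a peak. Over all protein-coding genes, 56.1% had a peak at any annotated TSS in both replicates, and among the 9 genes the same 3 did.

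**Figure D2:**
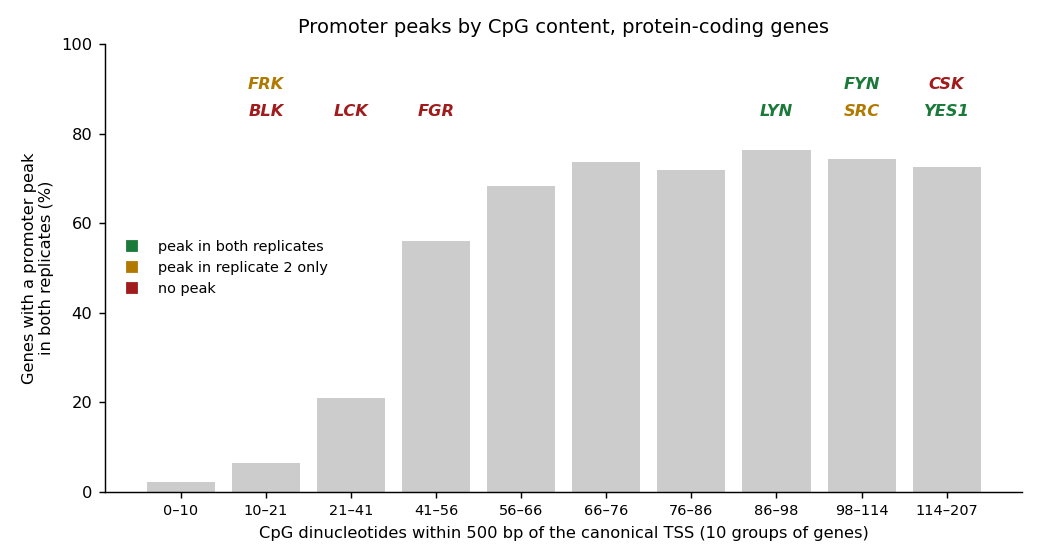
Share of protein-coding genes with a promoter peak in both replicates (y axis, %) in 10 groups of equal size by the number of CpGs within 500 bp of the canonical TSS (x axis). Gene names stand above the group they belong to and are coloured by their own promoter peaks. The bars rise from 2.10% to 76.3%, and SRC and CSK stand in groups where over 70% of genes had a peak in both replicates.

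Promoter CpG content was set beside these calls. Within 500 bp of the canonical TSS, YES1 had 117 CpGs, CSK 114, FYN 108, SRC 99 and LYN 96, while FGR had 44, LCK 28, BLK 20 and FRK 11. The median was 80 at promoters with a peak in both replicates and 24 at promoters with a peak in neither. The CpG-rich genes were thus YES1, CSK, FYN, SRC and LYN, and 3 of these 5 had a peak in both replicates, against 0 of the 4 others. Among all protein-coding genes with a CpG count like that of SRC and FYN, 74.2% had a peak in both replicates. The share was 72.5% for the group that holds CSK and YES1, and 76.3% for that of LYN. The group of FGR had 55.9% and that of LCK 21.0%. BLK and FRK stood in a group with 6.49%. In replicate 2 alone, the list in which FRK had its peak, 8.34% of the genes of that group had one.

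**Figure D3:**
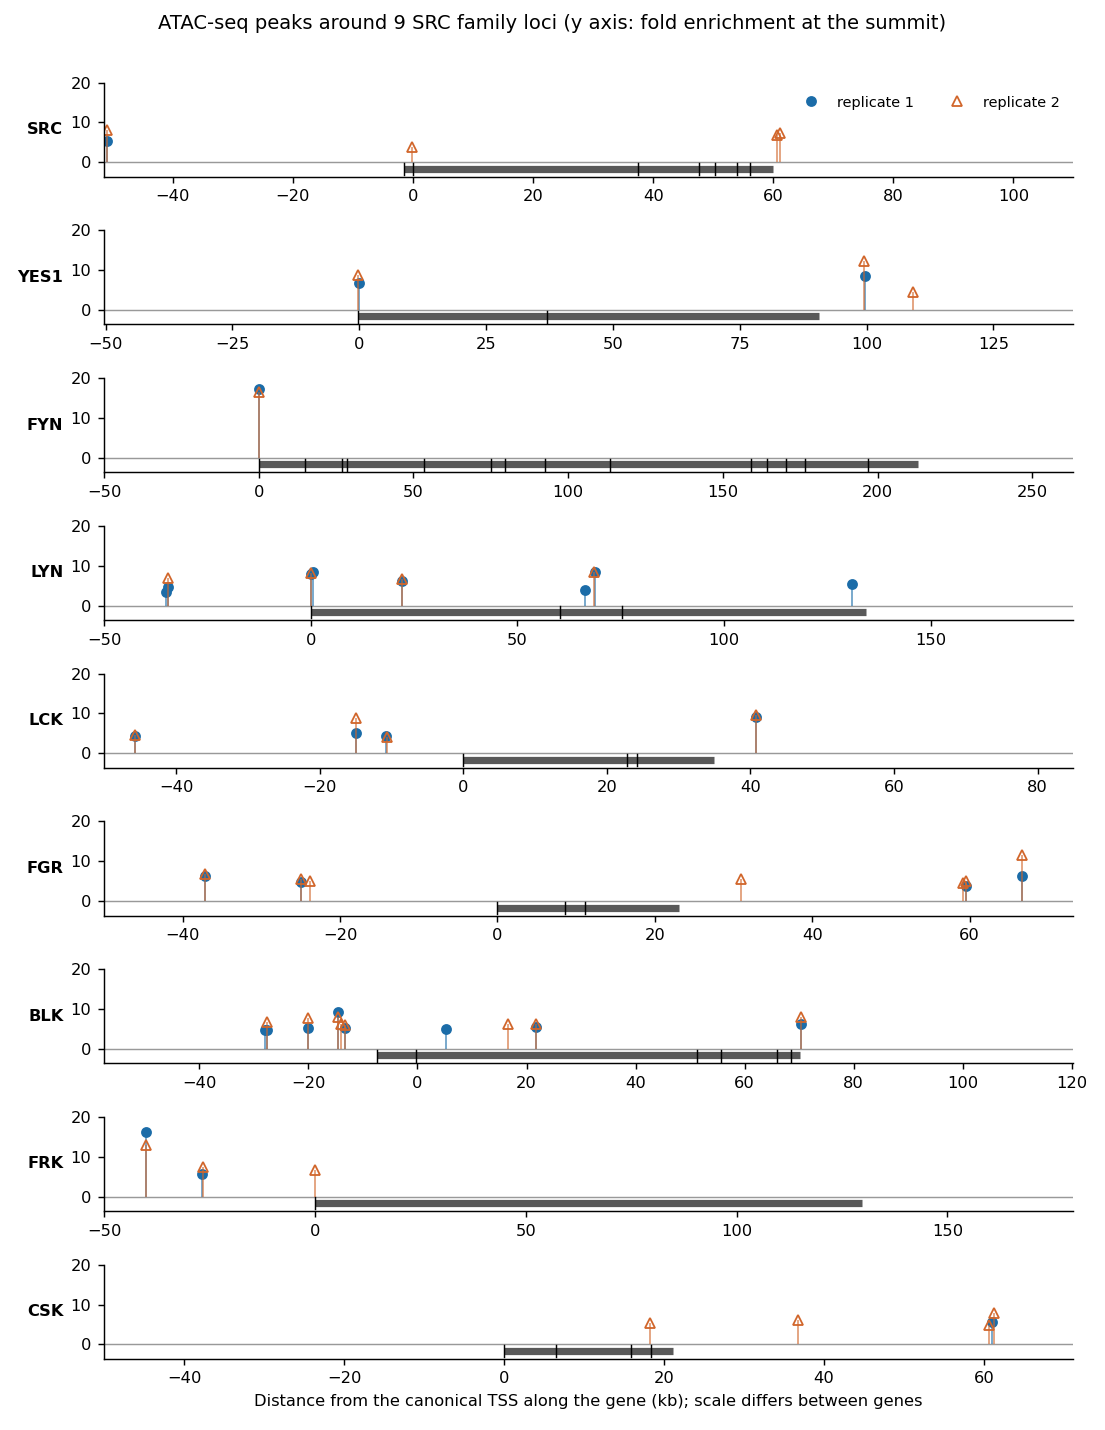
Peaks of replicate 1 (circles) and replicate 2 (triangles) at each gene, with 50 kb on either side. The x axis is the distance from the canonical TSS along the gene in kb, and the y axis is the fold enrichment at the summit. Grey bars are gene bodies and black ticks are start site groups. FYN has 1 peak per replicate over its whole window, and BLK has 8.

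Over the 9 windows, replicate 1 had 31 peaks and replicate 2 had 38. They merged into 42 regions, of which 25 held a peak of both replicates, 4 of replicate 1 only and 13 of replicate 2 only. Of the replicate 1 peaks, 27 of 31 overlapped a replicate 2 peak, or 87.1% (95% Wilson interval 71.1 to 94.9), and 92.3% did over the whole list. In the other direction 25 of 38 did, or 65.8% (49.9 to 78.8), against 72.1%. The replicates were thus about as alike at these loci as elsewhere. None of the 69 peaks matched mitochondrial DNA.

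Regions of both replicates were unevenly spread over the loci. BLK had 6, LYN, LCK and FGR had 4 each, YES1 and FRK had 2 each, and SRC, FYN and CSK had 1 each. Per 100 kb of window this was 3.38 at BLK, 3.25 at FGR, 2.96 at LCK, 1.71 at LYN, 1.05 at YES1, 0.871 at FRK, 0.826 at CSK, 0.620 at SRC and 0.319 at FYN. The median over protein-coding genes was 1.54, with quartiles of 0.723 and 2.71. At these settings BLK, FGR and LCK stood above the upper quartile, and SRC and FYN below the lower one, but this order did not hold at other settings. With a flank of 10 kb, BLK had 4 regions, LYN 3, YES1 2, LCK and FYN 1 each, and SRC, FGR, FRK and CSK 0. With replicate 2 alone SRC, LYN, LCK and CSK had 4 regions each, FGR had 7 and BLK 8, and with replicate 1 alone LYN had 8. FYN had 1 region under each of these 3 settings, and 2 with a flank of 100 kb.

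Most of the shared regions lay outside the genes. Of the 25, 3 were at the canonical TSS of YES1, FYN and LYN, 3 were in introns and 19 were in the flanks, 13 upstream and 6 downstream. Of the flanking regions 7 lay at the promoter of a neighbouring protein-coding gene. These neighbours were ENOSF1 beside YES1, IQCC and HDAC1 beside LCK, IFI6 beside FGR, FAM167A beside BLK, NT5DC1 beside FRK and ULK3 beside CSK. In all, 15 other protein-coding genes had their canonical TSS in the windows, and 7 of them had a promoter peak in both replicates, near the 52.2% of all protein-coding genes.

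The neighbours held some of the strongest peaks of the windows. NT5DC1, which has its TSS 40.0 kb upstream of that of FRK, was enriched 16.2-fold in replicate 1 and 12.9-fold in replicate 2, with a mean of 14.6 ± 2.38 (SD, n = 2). HDAC1, a histone deacetylase gene whose promoter lies 40.8 kb downstream of the LCK TSS, had 9.38 ± 0.518 (SD, n = 2). ENOSF1 had 10.4 ± 2.53 (SD, n = 2). The open promoter of NT5DC1 thus stood beside a promoter of FRK that was called in 1 replicate, and that of HDAC1 beside a promoter of LCK that was called in neither. The other 4 neighbours had means from 4.43 ± 0.141 at IQCC to 6.82 ± 1.56 at ULK3 (SD, n = 2).

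Inside the genes, more than 1 kb from their annotated start sites, 2 of the 9 had a region of both replicates, against a background of 18.7% of protein-coding genes. LYN had 2 such regions, both in introns. The first lay 22.0 kb into the gene, with a fold enrichment of 6.24 in replicate 1 and 6.80 in replicate 2. The second lay 68.7 kb into the gene, with 8.49 and 8.38, or 8.44 ± 0.0755 (SD, n = 2), which was as high as the LYN promoter. BLK had 1, in an intron 21.7 kb downstream of its TSS, with 5.37 and 6.34. Its other peaks within introns, at 5.19 kb in replicate 1 and 16.6 kb in replicate 2, were not shared.

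FYN spans 213 kb and had 13 further start site groups, but had 0 peaks beyond its promoter in either replicate. Of the 1502 protein-coding genes of 200 kb or more, 36.6% had no region of both replicates inside, and 25.0% had at most 1 in their whole window. A long gene without inner peaks was thus not rare. SRC, YES1, FRK, LCK, FGR and CSK had no inner region of both replicates either.

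**Figure D4:**
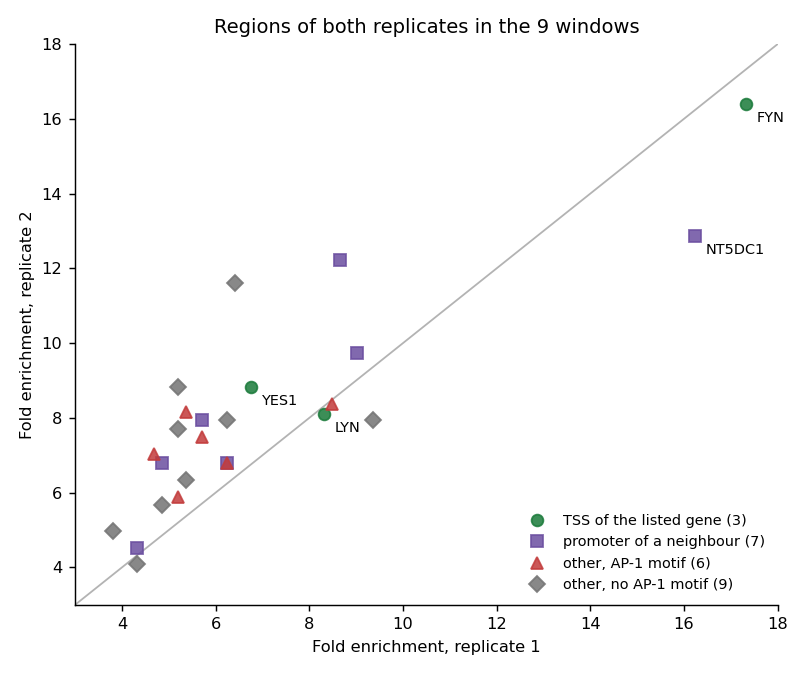
Fold enrichment in replicate 1 (x axis) and replicate 2 (y axis) of the 25 regions with a peak of both replicates in the 9 windows. Colours give the place of the region and whether the AP-1 motif lay within 100 bp of its summit, and the line marks equal values. The 15 regions away from promoters have mean folds from 4.20 to 9.01, with a median of 6.52. The 7 at neighbour promoters range from 4.43 to 14.6 (NT5DC1), with a median of 6.82. The 3 at the promoters of listed genes range from 7.80 to 16.9 (FYN).

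At SRC, the single region of both replicates lay 51.0 kb upstream of the TSS, in the body of the gene MANBAL. Its fold enrichment was 5.37 in replicate 1, with 30 fragments, and 8.16 in replicate 2, with 35 fragments, or 6.76 ± 1.97 (SD, n = 2). The peaks were 198 and 474 bp wide, so they overlapped by less than 50% of the wider one. This region lies near the edge of the 50 kb flank, and with a flank of 10 kb SRC had 0 regions of both replicates. Replicate 2 had 2 more peaks with summits 0.732 and 1.23 kb beyond the end of SRC, at folds of 6.80 and 7.48, and replicate 1 had no peak there.

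At the other loci, 14 shared regions lay away from promoters. The 2 introns of LYN and 1 of BLK are given above. LYN had 1 more, 34.5 kb upstream of its TSS, with 5.85 ± 1.66 (SD, n = 2). LCK had 2, at 14.9 and 10.7 kb upstream of its TSS, in the body of EIF3I, with 7.02 ± 2.57 and 4.20 ± 0.179 (SD, n = 2). FGR had 2 in the body of AHDC1, the farther with 9.01 ± 3.68 (SD, n = 2), and 1 that lay 24.9 kb upstream with 5.26 ± 0.575 (SD, n = 2). BLK had 3 upstream regions within 20.1 kb of its TSS, and 1 that lay 0.157 kb past its 3′ end with 7.08 ± 1.20 (SD, n = 2). FRK had 1, at 26.6 kb upstream. The mean folds of all 15 ranged from 4.20 to 9.01 with a median of 6.52, and 12 of the 15 were higher in replicate 2. Folds were also higher in replicate 2 over the whole lists, with medians of 6.57 against 6.06 in replicate 1. The share of all shared regions that were higher in replicate 2 was not counted.

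The AP-1 motif was searched as TGAGTCA or TGACTCA, which are reverse complements of each other, within 100 bp of the summit. AP-1 is the dimer of JUN and FOS proteins, and its motif is common in open regions away from promoters. It was found in 6 of the 25 shared regions, or 24.0% (95% Wilson interval 11.5 to 43.4), against 20.5% of all 25366 regions with a peak of both replicates. For the motif counts, start sites are the canonical ones of protein-coding genes, and regions at other annotated start sites count as away from them. Away from start sites the count was 6 of 15, or 40.0% (19.8 to 64.3), against 32.9%, and at start sites 0 of 10, against 2.93%. The share at the kinase loci thus did not stand apart from the background. The 6 regions were the upstream region of SRC, that of FRK, the upstream region and both intron regions of LYN, and 1 upstream region of BLK, and the promoters of FYN, YES1 and LYN had none.

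The motif sites at SRC and FRK are shown because they are at the regions nearest to these genes that were open in both replicates. The motif is in capitals with 20 bases on either side, on the plus strand of hg38.
SRC, first site (chr20:37295073-37295119): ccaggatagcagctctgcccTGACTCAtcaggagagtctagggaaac
SRC, second site (chr20:37295217-37295263): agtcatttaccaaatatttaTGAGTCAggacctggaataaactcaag
FRK (chr6:116087495-116087541): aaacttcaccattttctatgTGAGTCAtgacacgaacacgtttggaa
The first SRC site was centred 51 bp before the summit and the second 93 bp after it, so only 1 motif at these 2 regions, that of FRK at 19 bp, lay within 50 bp of a summit. Such matches describe the sequence and do not show that AP-1 was bound.

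The GC box GGGCGG, on either strand, showed the opposite pattern. All 10 shared regions at start sites, among them the promoters of YES1, FYN and LYN, held it no more than 100 bp from the summit (100%, Wilson interval 72.2 to 100), against 69.5% of such regions in the whole lists. Away from start sites 5 of 15 had it, or 33.3% (15.2 to 58.3), against 18.2%. The CCAAT motif was found in 8 of the 25 regions against 26.3% of all regions, the ETS motif CCGGAA in 4 against 12.9%, the TEAD motif CATTCC in 3 against 17.7%, and the RUNX motif TGTGGT in 3 against 13.2%. For these 4 motifs the background lay within the 95% Wilson interval of the share at the kinase loci. The GC box was found in 15 of the 25 regions, or 60.0% (40.7 to 76.6), and its background of 39.5% lay just below that interval. The cause of this was not tested.

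The genes that regulate the family or work with it were read at their promoters. Of 10 regulators, 7 had a promoter peak in both replicates, or 70.0%, beside the 52.2% of all protein-coding genes. CBLB, an E3 ubiquitin ligase, had 16.4 ± 0.541 (SD, n = 2) and PAG1, the membrane adaptor that recruits CSK, had 13.3 ± 0.797 (SD, n = 2). The phosphatase genes PTPN1, PTPRA, PTPRE and PTPN11 and the ligase gene CBL were the other 5. MATK, PTPN6 and PTPRC, which are best known from blood cells, had none.

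Of 20 adaptors and substrates, 17 had a promoter peak in both replicates, or 85.0%, beside the 52.2% of all protein-coding genes. NEDD9, a scaffold of focal adhesions, had the highest mean fold at 17.6 ± 2.79 (SD, n = 2), and CAV1, a membrane protein phosphorylated by SRC, had 9.94 ± 1.57 (SD, n = 2). PTK2, the focal adhesion kinase, had 8.24 and 7.74. PTK2B had a peak in replicate 1 only, PXN in replicate 2 only and EFS in neither.

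Of 12 other cytoplasmic tyrosine kinases, 9 had a promoter peak in both replicates, beside the same background. FER had 17.1 ± 0.502 (SD, n = 2) and JAK2 had 12.6 ± 0.170 (SD, n = 2), and SRMS, FES and BMX had none. PTK6, a near relative of FRK, had 8.14 and 11.3. Over the regulators, adaptors, immune partners and other kinases together, 33 of 54 genes, or 61.1%, had a promoter peak in both replicates, beside the 52.2% of all protein-coding genes. Where these genes had a peak, its median fold was 7.83 in replicate 1 and 9.64 in replicate 2, and all promoter peaks had 7.97 and 9.06.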

How the data were processed

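ATAC-seq peaks of 2 BEAS-2B replicates were analysed. Per the labels and methods, the authors aligned the reads with Bowtie2 2.4.4 to hg38, deleted duplicates by their own code and ran MACS2 2.2.7.1 on each replicate with all remaining reads, and SAMtools 1.13 is also named. The fold enrichment given by the authors is a ratio on a linear scale, of summit fragments to local background. The −log10 p and −log10 q of each peak are also deposited. The deposited score, which is the −log10 q times 10 without its decimals, was not used. The handling of mitochondrial reads, the Tn5 shift and the q limit are not given in the sources used here. The depth is known only through the fragments at the summits.

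The chromosomes 1 to 22, X and Y were used, with GENCODE 44, whose build is that of the lists. Promoters were 1 kb to either side of the canonical TSS, windows had 50 kb flanks, and an overlap was at least 1 bp. Fragments were solved from the fold and −log10 p within 0.01. These steps, the overlap and the motif search were tested on simulated data. The simulated fragment numbers all lay above those of the SRC promoter peak and the weakest listed summits. Recovery of such low numbers was not tested. Mitochondrial matches used BLAST 2.17.0 (E-value at most 1e-10), and the rest Python 3.11.15 with pysam 0.24.0 and scipy 1.17.1.

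The genes named were the 9 kinases, neighbours with a promoter peak in both replicates, and from each pathway list the 2 highest mean promoter folds and the genes without a peak in either replicate where these were 6 or fewer. The members, lists and settings were chosen with earlier results of these data known. The marker genes and the other genes named, such as PTK2, PTK2B, PXN, PTK6, MANBAL, EIF3I, AHDC1, the further regulators and the immune partners, were named after their values were seen, and 1 further result is not reported here. The alternatives were each replicate alone, a −log10 q limit of 5, the strongest peaks in equal number, other promoter, flank and motif windows, any annotated TSS, and an overlap of 50% of each peak.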

Additional observations from a re-analysis of the deposited data

How the results depend on the processing

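Across 13 alternative settings, 140 values were recomputed for 23 results, of which 114 stayed within 1.5 times a count, the counting interval of a share or the replicate SD of a fold, and 26 moved beyond it. YES1, FYN and LYN kept a promoter peak in both replicates under the stricter q limit and with only the strongest peaks in equal number. They also kept it with the 500 bp and 3 kb promoter windows. The flank, overlap and motif settings cannot change a promoter call, and counting any annotated TSS can only add genes. A single list cannot show a peak in both replicates. With 1 replicate left out, 3 to 5 of the 9 genes had a promoter peak in the other, and 3 to 6 had one at any annotated TSS. The replicates of SRC with a TSS peak numbered 0 at a −log10 q of at least 5, 0 with equal numbers of the strongest peaks, and 0 to 1 with 1 replicate left out. The 25 regions of both replicates became 11 with a flank of 10 kb and 31 to 38 with 1 replicate left out. With an overlap of 50% of each peak, 64.5% of the replicate 1 peaks were shared. A promoter peak was found at 0 epithelial markers with the 500 bp promoter window, 2 with the 3 kb window and 2 at any annotated TSS. A shorter flank or a single list changes a count by construction, and other causes were not tested. Of the 75 values per gene, 15 moved, all of them counts of regions in a window.

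No paired analysis was possible because only 1 condition was profiled. The peak lists hold no reads below the calling limit, so 16 fragments in replicate 1 and 13 in replicate 2 limit what the absence of a peak at SRC or CSK can show.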
